A study of Mus musculus with 4 samples.

Results

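The collagen genes were followed in sorted tongue epithelium of mouse embryos, in libraries labelled control or Ring1a/b 2KO. They were taken by symbol, as every gene named Col, a number, a and a number, and there were 44 of them among the 24453 genes of the files. Of these, 8 are grouped here as epithelial collagens: Col17a1, Col7a1 and the 6 type IV chains of basement membranes. The other 36 are fibrillar collagens and further collagens known mainly from connective tissue.

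The study asked what the lingual epithelium loses or gains without Ring1a and Ring1b (gene symbols Ring1 and Rnf2), the catalytic subunits of Polycomb repressive complex 1, which ubiquitylates histone H2A and represses developmental genes. All 4 libraries came from embryonic day 16: 2 were labelled control, with no further genotype given, and 2 were labelled 2KO, with the genotype Ring1a-/- Ring1b fl/fl and Krt14-Cre. The Krt14 promoter drives Cre in basal keratinocytes, so cells that never used it kept Ring1b. Tongues without the circumvallate papilla were digested with dispase, collagenase and trypsin, and cells carrying EpCAM, a surface adhesion molecule of epithelium, were sorted. Whether the libraries of a group came from different embryos is not in the labels, so a p-value here covers library-to-library spread, which may be technical.

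Collagens are triple helices of 3 chains, secreted into the matrix. Type IV chains form the sheet of the basement membrane: Col4a1 and Col4a2 chains make the network found under most epithelia and around vessels, and Col4a5 and Col4a6 chains make a second network under some stratified epithelia. Col17a1 spans the keratinocyte membrane in the hemidesmosome, and Col7a1 forms the anchoring fibrils that tie the basement membrane to the dermis. Fibrillar collagens (types I, II, III, V, XI, XXIV and XXVII) build the rope-like fibrils of connective tissue and cartilage and are made mainly by mesenchymal cells.

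Libraries held 16256569 to 20624055 counts, and collagens took 0.284% to 0.350% of them. The ribosomal precursor Rn45s took 16.7% and 15.3% in control and 22.9% and 20.2% in the 2KO-labelled libraries. Ring1 was at 9.02 and 8.57 CPM (counts scaled to library size) in control and 16.8 and 15.0 CPM in the 2KO-labelled libraries (adjusted p = 0.101, edgeR). Rnf2 was at 34.0 and 51.3 CPM against 62.9 and 62.4 CPM (adjusted p = 0.126). Both targeted genes were thus no lower under the 2KO label. The labels do not name the deleted exons, so whole-gene counts do not check the genotype, and every direction here is between libraries as labelled.

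By control level the median of the epithelial collagens stood above that of the rest, while single members of both sides overlapped. Levels between genes are compared in FPKM, a depth-scaled fragment density per kilobase of transcript. The median control FPKM was 15.3 over the 8 epithelial members and 1.04 over the 36 others. Col17a1 alone made 54.4% and 48.4% of the summed collagen FPKM in control replicates 1 and 2 and 44.8% and 46.9% in the 2KO-labelled libraries. All 8 epithelial members together made 74.5% and 68.5% in control and 62.4% and 64.9% in the 2KO-labelled libraries. The epithelial share was thus lower in both 2KO-labelled libraries than in either control. A sorted bulk library cannot tell fewer cells of a type from less RNA per cell, here or below.

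**Figure D1:**
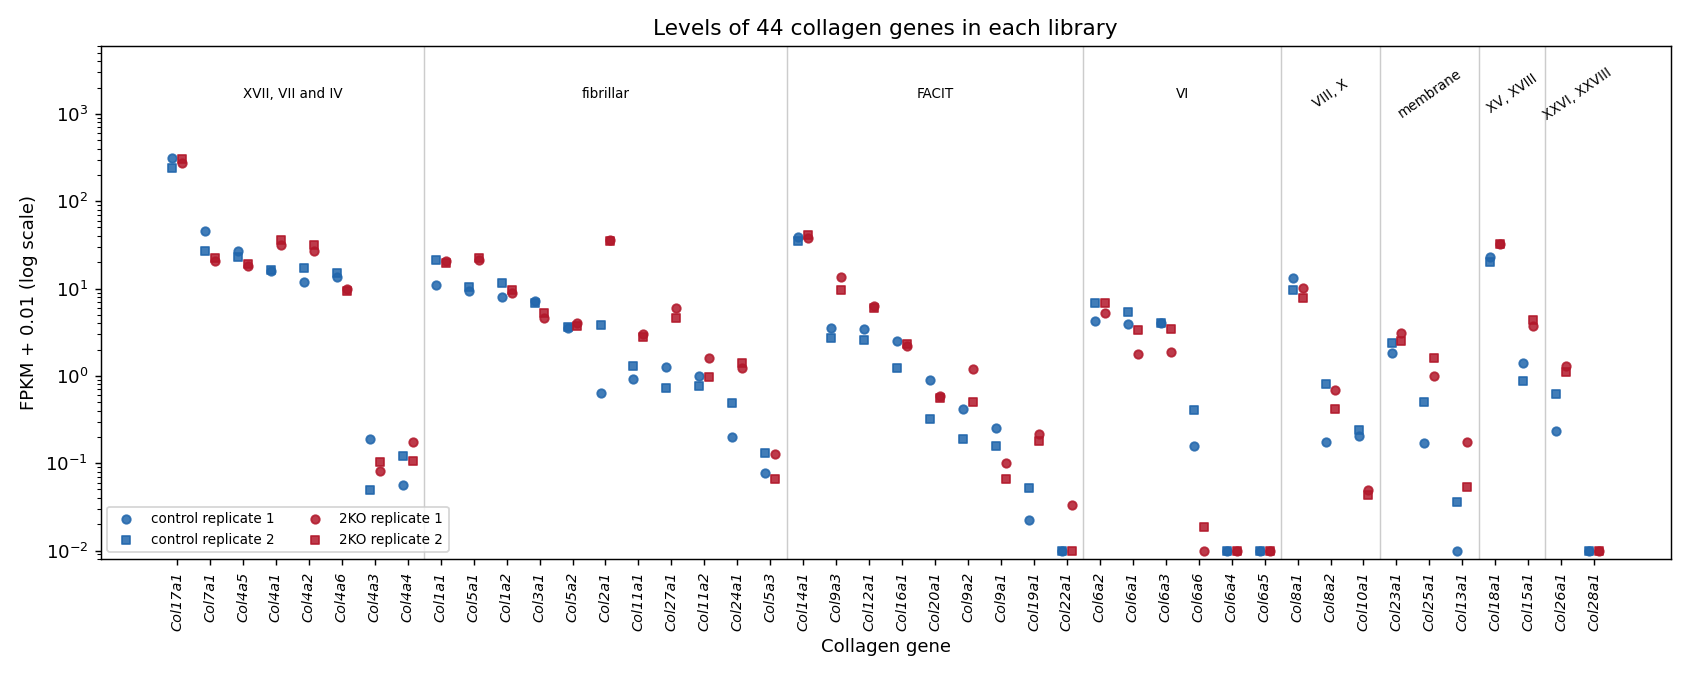
FPKM plus 0.01 on a log axis for each of the 44 collagen genes, grouped by class and ordered by control level, with 1 point per library (blue control, red 2KO). Col17a1 stands above all other members in every library, and Col2a1 shows the widest gap between groups among members above 1 FPKM.

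Between groups, 10 collagens rose, 3 fell and 26 of the 39 tested did not pass the test, an edgeR quasi-likelihood test with p-values adjusted over all 15336 genes tested. The share that rose was 25.6%, against 7.00% of all genes tested, and the share that fell was 7.69%, against 4.92%; in either direction 11.9% of all genes were called. The groups did not overlap in CPM for 28 of the 39, against 57.7% of all genes. Of the 8 epithelial members 2 rose (Col4a1, Col4a2), 3 fell (Col7a1, Col4a5, Col4a6) and 3 were not called. Of the 31 other members tested 8 rose, 0 fell and 23 were not called. The median log2 fold change was 0.15 on the epithelial side (range -0.78 to 1.00) and 0.29 on the other side (range -3.68 to 4.04), beside 0.01 over all genes tested. The epithelial median was -0.29 without control replicate 2, -0.10 without 2KO replicate 1 and 0.33 without control replicate 1, and the other median was 0.64 without either control replicate. The count that fell was 1 without control replicate 1 or without 2KO replicate 1. The difference between both sides was not tested. On the deposited FPKM values limma-trend called 7 collagens higher and 0 lower with a filter, and 0 without one, with 18 at an unadjusted p under 0.05.

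Collagen transcripts are long and rich in G and C, and these properties moved with the fold change across all genes. Median transcript GC content was 55.7% for tested collagens and 50% for all genes tested, and 19 of the 39 lay in the quintile of genes with the highest GC content. The median log2 fold change over all genes went from -0.16 in the lowest GC quintile to 0.29 in the highest. With a per-library offset for GC content and transcript length, 4 collagens rose and 7 fell. With the same offset centred so that it left the median gene unmoved, 5 rose and 4 fell, and the medians were -0.14 for epithelial and -0.10 for other members. Members whose call ended under both offsets were Col4a1, Col4a2, Col5a1, Col11a1 and Col24a1. The log2 fold change of Col11a1 was 0.85 with the offset and 1.00 with it centred (adjusted p = 0.0833 and 0.0625), beside 1.11 without it. That of Col24a1 was 1.53 and 1.67 (adjusted p = 0.0596 and 0.0573), beside 1.85. That of Col5a1 was 0.39 and 0.54 (adjusted p = 0.172 and 0.0636). The part of GC content in the collagen result was not tested further.

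**Figure D2:**
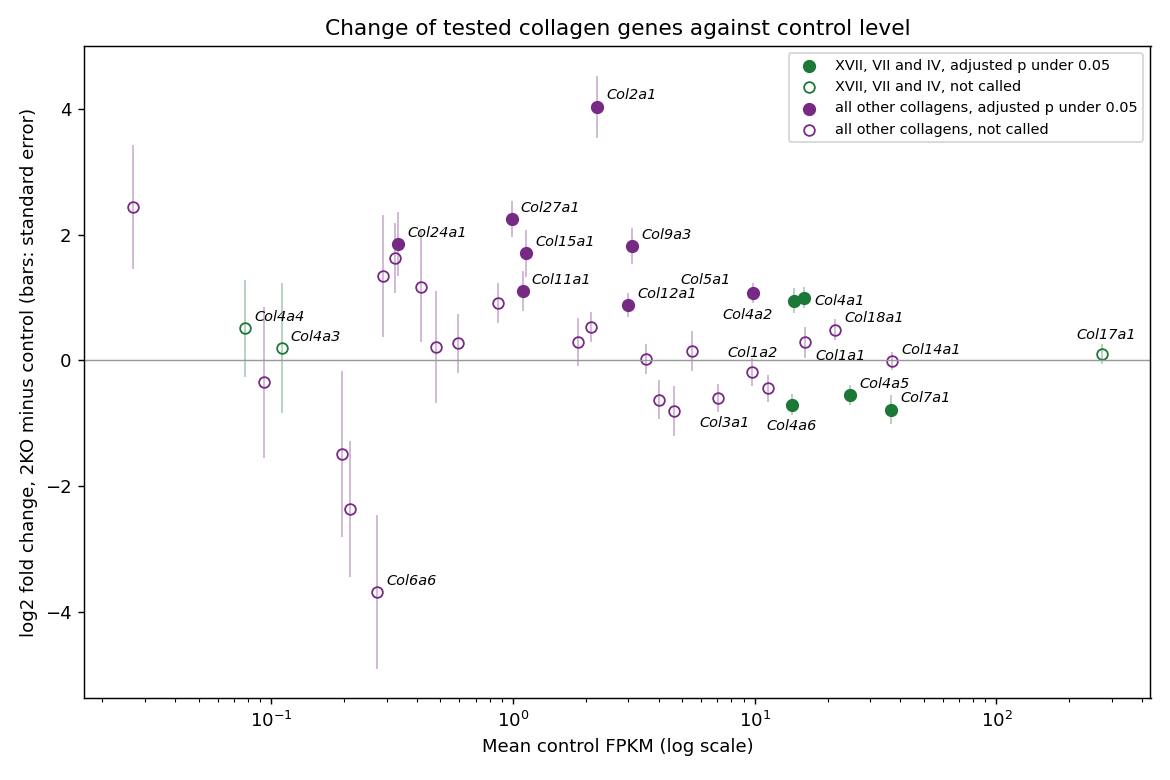
Log2 fold change (2KO-labelled minus control, bars of 1 standard error) of the 39 tested collagens against mean control FPKM on a log axis; filled points passed the test. The epithelial members (green) lie on both sides of 0, and the filled points of the other members (purple) all lie above it, from 0.89 for Col12a1 to 4.04 for Col2a1.

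Col17a1, the transmembrane collagen of the hemidesmosome (chr19:47646344-47692094, minus strand, build GRCm38), was the most abundant collagen in both groups. It stood at 309 and 237 FPKM in control and 273 and 306 FPKM in the 2KO-labelled libraries, so the groups overlapped. Its log2 fold change was 0.10 (SE 0.16, adjusted p = 0.729). The sign turned without control replicate 2 (-0.08), without 2KO replicate 2 (-0.04) and under both offsets (-0.42 and -0.28), never with a call.

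Col7a1, the anchoring fibril collagen (chr9:108953586-108984875, plus strand), stood at 46.1 and 27.1 FPKM in control and 20.6 and 22.1 FPKM in the 2KO-labelled libraries. Both control libraries were higher, control replicate 1 by far. Col7a1 fell by 0.78 on the log2 scale (SE 0.23, adjusted p = 0.0481), a 1.72-fold drop. Without control replicate 1 the log2 fold change was -0.31 (adjusted p = 0.258), and with RLE and upper-quartile scaling the adjusted p was 0.0507 and 0.0644. Under the centred GC offset it was -1.53 (adjusted p = 0.000695).

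The type IV chains split by network. Col4a1 rose 2.00-fold, from 15.7 and 16.3 FPKM to 31.3 and 36.0 FPKM (log2 fold change 1.00, SE 0.17, adjusted p = 0.00369). Its partner Col4a2 stood at 11.95 and 17.2 FPKM in control and 26.9 and 31.3 FPKM in the 2KO-labelled libraries (log2 fold change 0.95, SE 0.20, adjusted p = 0.0129). For both chains each 2KO-labelled library was above both controls. With the GC and length offset the log2 fold changes were 0.38 (adjusted p = 0.177) for Col4a1 and 0.14 (adjusted p = 0.727) for Col4a2, and centred they were 0.53 (adjusted p = 0.0570) and 0.29 (adjusted p = 0.456). Transcript GC content was 57.7% for Col4a1 and 60.6% for Col4a2. These genes lie head to head on chromosome 8 (chr8:11198423-11312826, minus strand, and chr8:11312805-11449287, plus strand), and their first exons overlap. The overlap is 0.295% of the exon bases of Col4a1; the share of reads it touches was not measured.

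Col4a5 and Col4a6 moved the other way. Col4a5 stood at 26.8 and 22.8 FPKM in control and 18.2 and 19.1 FPKM in the 2KO-labelled libraries. It fell by 0.55 on the log2 scale (SE 0.15, adjusted p = 0.0413). Col4a6 stood at 13.5 and 15.0 FPKM in control and 9.90 and 9.40 FPKM in the 2KO-labelled libraries. It fell by 0.71 on the log2 scale (SE 0.17, adjusted p = 0.0216). No 2KO-labelled library reached the lower control for either gene, and both falls held under the centred offset (-0.72, adjusted p = 0.0125, and -0.97, adjusted p = 0.00494). Leaving out 2KO replicate 1 or 2 ended both calls, with adjusted p from 0.0713 to 0.193, and Col4a5 was also lost without control replicate 1 (adjusted p = 0.0801) and with upper-quartile scaling (adjusted p = 0.0553).

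Both genes are X-linked (Col4a5 at chrX:141475385-141689234, plus strand; Col4a6 at chrX:141165403-141474076, minus strand). The Y-linked Ddx3y was at 75.8 and 59.7 CPM in control and 56.0 and 60.0 CPM in the 2KO-labelled libraries, and Xist was at 2.11 to 5.22 CPM over the 4 libraries. The Y-linked Uty (32.3 and 38.1 against 31.8 and 24.3 CPM), Eif2s3y (49.5 and 46.5 against 40.8 and 39.97 CPM) and Kdm5d (57.6 and 79.5 against 45.7 and 47.9 CPM) were lower in both 2KO-labelled libraries than in both controls. None of these 3 was called by edgeR (adjusted p = 0.409, 0.448 and 0.106), and Kdm5d was called lower under the uncentred offset (adjusted p = 0.0435). Their part in the X-linked result was not tested. The remaining type IV chains, Col4a3 and Col4a4, known from kidney glomerulus, were at most 0.181 FPKM in any library, with log2 fold changes of 0.19 (adjusted p = 0.929) and 0.51 (adjusted p = 0.725).

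Summed over chains, Col4a1 and Col4a2 held 27.6 and 33.5 FPKM in control and 58.3 and 67.3 FPKM in the 2KO-labelled libraries. Col4a5 and Col4a6 held 40.3 and 37.8 FPKM against 28.1 and 28.5 FPKM. The ratio of the first pair to the second was 0.685 and 0.888 in control (0.787 ± 0.143, SD, n = 2) and 2.07 and 2.36 in the 2KO-labelled libraries (2.22 ± 0.205, SD, n = 2). The groups did not overlap, and the exact permutation p of 0.333 (two-sided) is the smallest that 2 against 2 libraries can give. The ratio was taken without the GC and length offset, under which the calls of Col4a1 and Col4a2 ended. Transcript GC content was 57.7% and 60.6% for Col4a1 and Col4a2, and 51.5% and 53.6% for Col4a5 and Col4a6. Within each pair the ratio of chains stayed close: Col4a1 over Col4a2 ranged from 0.947 to 1.31 and Col4a5 over Col4a6 from 1.52 to 2.03 over the 4 libraries.

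**Figure D3:**
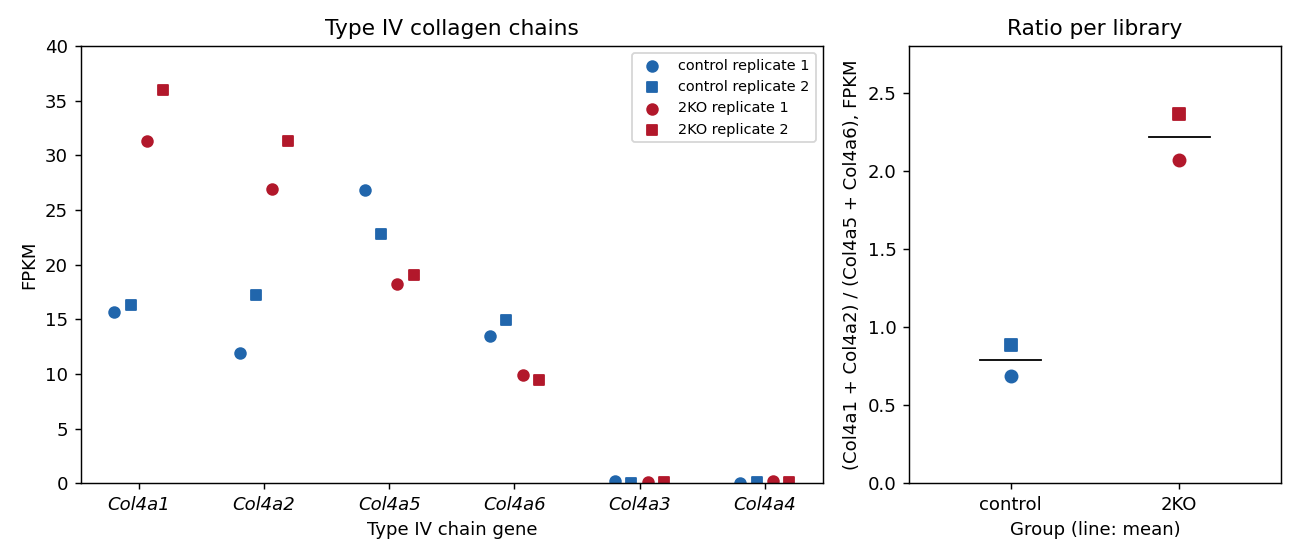
Left, FPKM of the 6 type IV chain genes in each library; right, the ratio of summed Col4a1 and Col4a2 to summed Col4a5 and Col4a6 FPKM, with the mean of each group as a line. Col4a1 and Col4a2 are higher and Col4a5 and Col4a6 lower in both 2KO-labelled libraries, and the ratio moves from below 1 to above 2. The GC and length offset was not applied to these values.

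The start regions of the collagens also differed in their CpG content, which matters for Polycomb complexes as a known recruiting feature. RefSeq promoter windows of 300 bases (250 before the start and 50 after, build GRCm38.p6) were matched for 35 of the 44 genes, with 38 windows. Not matched were Col2a1, Col9a3, Col1a1, Col12a1, Col14a1, Col22a1, Col26a1, Col4a3 and Col5a2. The median window held 11.5 CG dinucleotides, beside 7 over all 32851 windows. Windows of members that rose held 6 to 37, windows of members that fell 3 to 12, and windows of members not called 0 to 32. Col4a1 and Col4a2 had 37 and 33, Col5a1 34 and Col27a1 18, while Col11a1, Col15a1 and Col24a1, which also rose, had 9, 8 and 6, inside the range of members that fell. The counts were 11 for Col4a5, 3 for Col4a6, 12 for Col7a1 and 5 for Col17a1. The ranges of members that rose and members not called overlapped almost wholly, and no test was made.

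The stretches upstream of the first exon are shown for the head-to-head pair that fell together, for Col7a1, which also fell, and for Col17a1, the most abundant member. Each is printed 5′ to 3′ on the gene's strand, with CG dinucleotides in capitals.
Col4a5 (chrX:141475169-141475384, plus strand): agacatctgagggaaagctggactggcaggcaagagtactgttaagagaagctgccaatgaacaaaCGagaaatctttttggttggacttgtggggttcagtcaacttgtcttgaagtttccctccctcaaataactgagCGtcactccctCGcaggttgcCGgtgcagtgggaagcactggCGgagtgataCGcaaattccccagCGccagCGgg
Col4a6 (chrX:141474077-141474326, minus strand): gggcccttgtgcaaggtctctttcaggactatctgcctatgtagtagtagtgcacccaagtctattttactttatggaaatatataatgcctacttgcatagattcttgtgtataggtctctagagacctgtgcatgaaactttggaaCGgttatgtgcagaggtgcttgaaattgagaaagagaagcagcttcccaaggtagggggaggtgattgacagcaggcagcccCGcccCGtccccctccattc
Col7a1 (chr9:108953336-108953585, plus strand): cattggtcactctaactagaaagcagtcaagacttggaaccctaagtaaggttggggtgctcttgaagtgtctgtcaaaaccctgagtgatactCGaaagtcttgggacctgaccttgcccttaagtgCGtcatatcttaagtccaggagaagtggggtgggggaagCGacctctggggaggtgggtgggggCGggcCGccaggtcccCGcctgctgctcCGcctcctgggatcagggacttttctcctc
Col17a1 (chr19:47692095-47692292, minus strand): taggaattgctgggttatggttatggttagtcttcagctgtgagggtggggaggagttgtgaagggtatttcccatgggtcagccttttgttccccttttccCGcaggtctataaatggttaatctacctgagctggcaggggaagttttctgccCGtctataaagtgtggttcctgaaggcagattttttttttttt

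These stretches hold 8, 3, 7 and 2 CG dinucleotides in that order. The Col4a5 and Col4a6 starts are 1308 bases apart. Of 3 motifs searched on both strands, GGGCGG was in 60.5% of collagen windows and 35.7% of all windows, TATAAA in 13.2% and 13.6%, and CCAAT in 34.2% and 37.4%. The Col17a1 window held 2 matches of TATAAA, and the Col4a5 and Col4a6 windows none. A match is a letter pattern, not a site.

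Among the fibrillar collagens, 5 of 11 rose and 0 fell, with a median log2 fold change of 0.92. Types I, III and V, the fibrils of dermis and tendon, gave 1 of these: 1 of their 6 genes rose, and the median was -0.08. Col1a1, chain 1 of type I, stood at 10.99 and 21.2 FPKM in control and 20.9 and 19.7 FPKM in the 2KO-labelled libraries (log2 fold change 0.29, SE 0.24, adjusted p = 0.494). The groups overlapped, and the controls were far apart. Without control replicate 2 the log2 fold change of Col1a1 was 0.80 (adjusted p = 0.00689), and without control replicate 1 it was -0.06. Col1a2, the partner chain, stood at 7.90 and 11.7 FPKM against 8.93 and 9.69 FPKM (log2 fold change -0.18, SE 0.23, adjusted p = 0.659). Col3a1, of reticular fibrils, stood at 7.27 and 6.77 FPKM against 4.60 and 5.29 FPKM (log2 fold change -0.60, SE 0.22, adjusted p = 0.102), and passed the test under the centred offset (-0.77, adjusted p = 0.0423).

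Col5a1, a minor fibril chain that sets fibril diameter, was the member of types I, III and V that rose (chr2:27886425-28039514, plus strand). It stood at 9.24 and 10.4 FPKM in control and 21.4 and 22.4 FPKM in the 2KO-labelled libraries, 2.11-fold higher (log2 fold change 1.08, SE 0.16, adjusted p = 0.00188). Both 2KO-labelled libraries were above both controls. With the GC and length offset the log2 fold change was 0.39 (adjusted p = 0.172), and centred it was 0.54 (adjusted p = 0.0636). Its partner chain Col5a2 stood at 3.50 and 3.57 FPKM against 4.06 and 3.76 FPKM (log2 fold change 0.02, adjusted p = 0.966). The ratio of Col5a1 to Col5a2 FPKM was 2.64 and 2.92 in control and 5.27 and 5.95 in the 2KO-labelled libraries.

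Markers of fibroblasts and mesenchyme were measurable in all libraries. Of 17 tested, 2 rose (Fbln2 and Tcf21), 1 fell (Postn) and 14 were not called. The shares were 11.8% higher and 5.88% lower, beside 7.00% and 4.92% of all genes tested. Fbln2 lost its call under the centred offset (adjusted p = 0.101), Tcf21 without 2KO replicate 2 (0.110) and Postn without 2KO replicate 1 (0.270). Their summed level was 330 and 376 CPM in control and 436 and 428 CPM in the 2KO-labelled libraries. Dcn, a small proteoglycan bound to fibrils, was at 124 and 117 CPM against 187 and 121 CPM, and the microfibril gene Fbn1 at 90.7 and 106 CPM against 102 and 108 CPM. Skeletal muscle markers summed to 69.0 and 434 CPM in control and 69.6 and 85.2 CPM in the 2KO-labelled libraries, with 0 of 11 called by edgeR. The log2 fold change was positive for 0 of the 11, with a median of -1.22. Ttn alone was at 34.3, 222, 43.2 and 38.9 CPM and Actc1 at 15.1, 63.3, 12.3 and 22.4 CPM. Control replicate 2 was the library with most muscle signal. Of types I, III and V, it was the higher control in CPM for Col1a1, Col1a2, Col5a1 and Col5a2. For Col3a1 and Col5a3 it was the lower control. The part of these cells in the fibrillar result was not tested.

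Col2a1 had the largest log2 fold change among the called collagens, followed by Col27a1. Col2a1, the main fibril chain of cartilage (chr15:97975602-98004695, minus strand), stood at 0.635 and 3.83 FPKM in control and 35.5 and 34.6 FPKM in the 2KO-labelled libraries. The 2KO-labelled libraries were nearly equal and far above both controls, which were themselves apart. Col2a1 rose 16.5-fold (log2 fold change 4.04, SE 0.49, adjusted p = 0.000568) and went from rank 20 to rank 3 of the 44 collagens by mean FPKM. Its log2 fold change was 3.33 without control replicate 1, 5.51 without control replicate 2 and 3.30 under the centred offset (adjusted p = 0.00262). Col2a1 FPKM was 0.0578 and 0.181 of Col1a1 FPKM in control and 1.70 and 1.75 of it in the 2KO-labelled libraries.

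Col27a1, a fibrillar collagen of developing cartilage (chr4:63214004-63334991, plus strand), stood at 1.25 and 0.717 FPKM in control and 5.90 and 4.60 FPKM in the 2KO-labelled libraries. It rose 4.77-fold (log2 fold change 2.25, SE 0.28, adjusted p = 0.000675) and kept its call under the centred offset (1.68, adjusted p = 0.00297). Col9a3, a chain of type IX that decorates type II fibrils (chr2:180597790-180622189, plus strand), stood at 3.50 and 2.72 FPKM against 13.5 and 9.52 FPKM. It rose 3.53-fold (log2 fold change 1.82, SE 0.28, adjusted p = 0.00236; centred offset 1.47, adjusted p = 0.00746). Exons of Tcfl5 on the opposite strand cover 6.07% of its exon bases, and counting by strand is not stated, so reads of both genes cannot be told apart there. The share of Col9a3 reads this touches was not measured.

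Col11a1, the core chain of thin cartilage fibrils, stood at 0.913 and 1.28 FPKM in control and 2.97 and 2.78 FPKM in the 2KO-labelled libraries (log2 fold change 1.11, SE 0.31, adjusted p = 0.0435). Col24a1, a fibrillar collagen of forming bone, stood at 0.189 and 0.481 FPKM against 1.21 and 1.38 FPKM (log2 fold change 1.85, SE 0.51, adjusted p = 0.0397). Both rose but held their call in 9 and 10 of 17 alternatives. Col11a1 lost it without control replicate 1 (adjusted p = 0.0897), 2KO replicate 1 (0.106) or 2KO replicate 2 (0.0755), and Col24a1 without control replicate 1 (0.0544) or 2KO replicate 2 (0.136). Without control replicate 2 the log2 fold change of Col24a1 was 2.52. Other cartilage chains did not pass. Col11a2 had a log2 fold change of 0.92 (adjusted p = 0.0905; called without control replicate 1, 1.27, adjusted p = 0.0146) and Col9a2 of 1.34 (adjusted p = 0.415). Col9a1 and Col10a1, below 0.25 FPKM in every library, had log2 fold changes of -1.49 (adjusted p = 0.517) and -2.36 (adjusted p = 0.182). Both entered the test through their control level alone, so the filter favoured a negative sign, which is not read as a direction. Over the 7 genes of types II, IX, X and XI, 3 rose and 0 fell, and the median was 1.11.

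Other cartilage markers were low. Of 8 found in the files 5 were tested and 1 rose, Sox5, a transcription factor of chondrocytes, at 5.15 and 8.63 CPM in control and 22.8 and 27.5 CPM in the 2KO-labelled libraries (adjusted p = 0.00489, edgeR). The remaining 7, matrix genes of chondrocytes, summed to 8.19 and 6.10 CPM in control and 22.1 and 7.62 CPM in the 2KO-labelled libraries, with 4 tested and 0 called by edgeR. All 4 tested had a positive log2 fold change (0.59 to 2.16, median 1.09). The groups did not overlap for 1 of them, beside 57.7% of all genes tested. It was Comp, a matrix protein of cartilage, at 0.490 and 0 CPM in control and 1.70 and 0.594 CPM in the 2KO-labelled libraries (log2 fold change 2.16, adjusted p = 0.383). Acan, the main cartilage proteoglycan, was at 3.14 and 1.76 CPM against 9.02 and 2.77 CPM, Matn1 at most 0.495 CPM, and Ucma had 0 counts in all 4 libraries. Col2a1 itself was at 2.74, 12.6, 122 and 128 CPM in the same order. Sox9, a known activator of Col2a1 that is also used in epithelial progenitors, was chosen after its values were seen: it was at 150 and 103 CPM in control and 242 and 311 CPM in the 2KO-labelled libraries (adjusted p = 0.00590). The part of chondrocytes in the Col2a1 result was not tested.

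**Figure D4:**
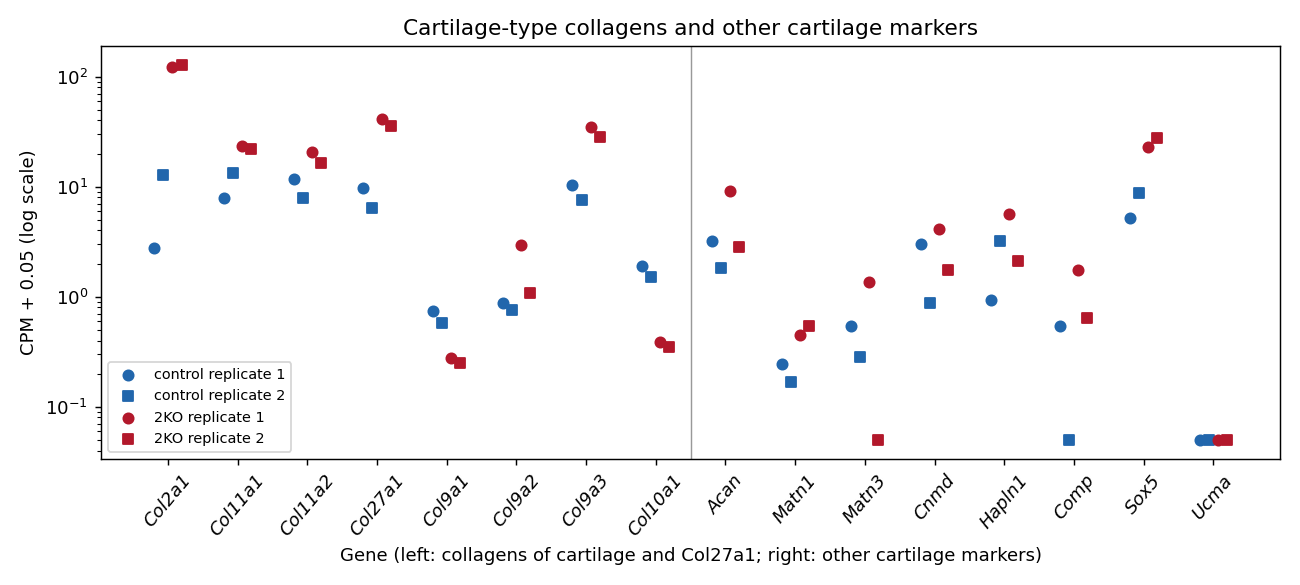
CPM plus 0.05 on a log axis for the collagens of cartilage with Col27a1 (left of the line) and other cartilage markers (right), 1 point per library. The groups do not overlap for any collagen shown: Col9a1 and Col10a1 are lower in the 2KO-labelled libraries and the others higher. Among the other markers, Sox5 does not overlap and is higher in the 2KO-labelled libraries. Acan, Cnmd and Hapln1 overlap between groups, Comp does not overlap at levels of at most 1.70 CPM, and Ucma is at 0 throughout.

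The fibril-associated collagens (FACITs) bind the surface of fibrils. Of 8 tested 2 rose, Col9a3 above and Col12a1, which bridges fibrils in dense connective tissue. Col12a1 stood at 3.40 and 2.58 FPKM in control and 6.27 and 5.95 FPKM in the 2KO-labelled libraries (log2 fold change 0.89, SE 0.19, adjusted p = 0.0140). It kept its call under the centred offset (0.70, adjusted p = 0.0410) and lost it uncentred (0.56, adjusted p = 0.0946). Col14a1, its close relative, was the second most abundant collagen in both groups, at 39.3 and 34.8 FPKM against 37.4 and 41.3 FPKM. Its groups overlapped, and its log2 fold change was -0.01 (SE 0.15, adjusted p = 0.978). Col19a1 had a log2 fold change of 2.44 on at most 0.207 FPKM (adjusted p = 0.134), and Col16a1 and Col20a1 overlapped between groups.

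Of the multiplexins, which sit in and under basement membranes, 1 of 2 rose. Col15a1 stood at 1.40 and 0.871 FPKM in control and 3.67 and 4.37 FPKM in the 2KO-labelled libraries, 3.26-fold higher (log2 fold change 1.70, SE 0.38, adjusted p = 0.0161; centred offset 1.39, adjusted p = 0.0305), and its log2 fold change was 2.32 without control replicate 1. Col18a1, the source of endostatin, stood at 22.7 and 20.4 FPKM against 32.2 and 32.1 FPKM. Its groups did not overlap, and its log2 fold change of 0.49 (SE 0.17) did not pass with edgeR (adjusted p = 0.0816), passed with DESeq2 (0.0496) and without control replicate 1 (0.0139), and turned to -0.12 under the centred offset.

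Endothelial cells also make Col4a1, Col4a2, Col15a1 and Col18a1. Their 10 markers summed to 33.7 and 30.6 CPM in control and 46.8 and 70.0 CPM in the 2KO-labelled libraries, with 0 of 10 called by edgeR. The log2 fold change was positive for 9 of the 10, with a median of 1.07. Cdh5 was at 8.53 and 9.80 CPM against 12.5 and 29.7 CPM (adjusted p = 0.0684), and Pecam1 at 6.81 and 2.41 CPM against 10.2 and 13.8 CPM (adjusted p = 0.104). Both were higher in both 2KO-labelled libraries, as were the 4 collagens. The part of endothelial cells in the result was not tested.

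Of the 4 tested type VI chains, which form beaded filaments around cells, 0 were called by edgeR and the median log2 fold change was -0.71. Col6a2, the most abundant, stood at 4.21 and 6.79 FPKM against 5.23 and 6.81 FPKM (log2 fold change 0.15, adjusted p = 0.810). Col6a1 and Col6a3 had log2 fold changes of -0.81 (adjusted p = 0.217) and -0.62 (adjusted p = 0.226). Without 2KO replicate 2 Col6a3 was called lower (log2 fold change -1.24, adjusted p = 0.0172). Col6a6 was at 1.13 and 2.46 CPM in control and 0.170 and 0.0989 CPM in the 2KO-labelled libraries (log2 fold change -3.68, adjusted p = 0.0752), and it was called lower by DESeq2 (-3.74, adjusted p = 0.0488). It had entered the test through its control level alone, as had Col9a1 and Col10a1. Under the uncentred offset Col3a1, Col6a1, Col6a3 and Col6a6 were called lower.

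Of the short-chain collagens VIII and X, 0 of 3 were called. Col8a1 stood at 13.2 and 9.53 FPKM against 10.2 and 7.79 FPKM (log2 fold change -0.44, adjusted p = 0.200). Of the membrane-spanning collagens other than Col17a1, Col23a1 stood at 1.80 and 2.40 FPKM against 3.10 and 2.47 FPKM (log2 fold change 0.53, adjusted p = 0.174), and Col25a1 had a log2 fold change of 1.63 (adjusted p = 0.0822). Col25a1 was called higher in 6 of 15 alternatives: DESeq2, limma-voom, no filter, the replicate block, without control replicate 2 (2.61, adjusted p = 0.00126) and without 2KO replicate 1 (1.94, adjusted p = 0.0232). Without control replicate 1 it was 1.07 (adjusted p = 0.131). Col26a1 was at most 1.30 FPKM (log2 fold change 1.18, adjusted p = 0.431), with 0.61 without control replicate 1 and 2.16 without control replicate 2, not called in either. The remaining 5 members were too low to test. Col6a5 had 0 counts in every library, against a floor of 3 counts for detection, and Col6a4 had 1 count in all. Col22a1 had 1 count in control and 2 in the 2KO-labelled libraries. Col28a1 had 0 counts in control, 4 in 2KO replicate 1 and 0 in 2KO replicate 2 (adjusted p = 0.574, edgeR with no filter on low counts), so no rise is shown. Col13a1 had 1 count in control and 11 in the 2KO-labelled libraries, or 10.9 times as many by TMM-scaled library size. The 95% counting interval, from 1.58 to 468, leaves out the spread between replicates. With no filter on low counts the adjusted p of Col13a1 was 0.560 (edgeR), so no rise is shown.

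**Figure D5:**
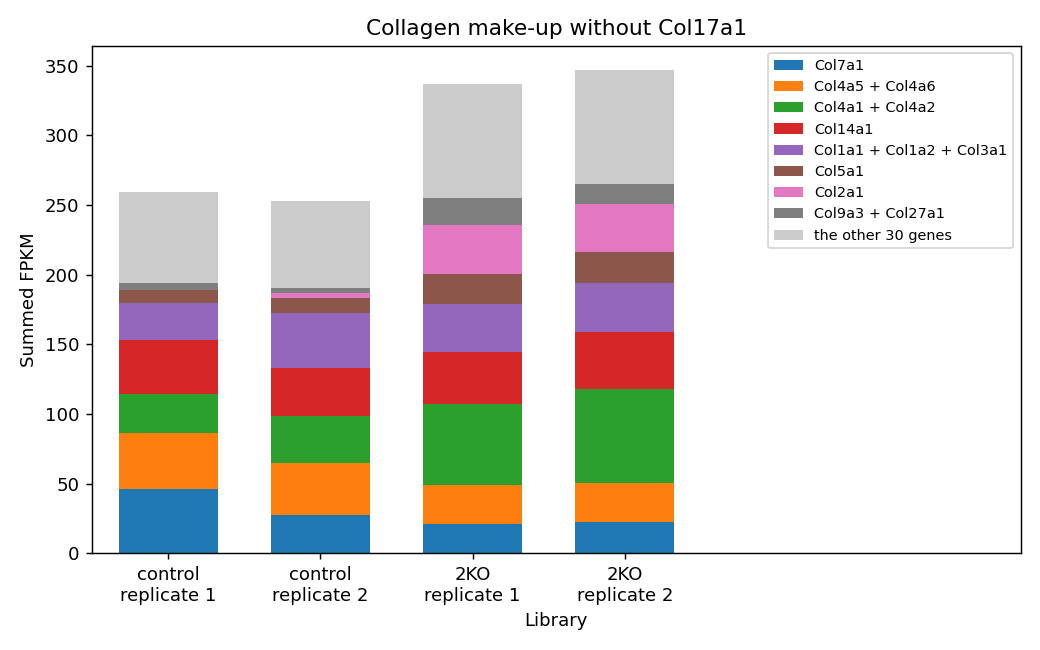
Summed FPKM of all collagens except Col17a1 in each library, stacked by gene or pair. The sum is 259.5 and 253 in control and 337 and 347 in the 2KO-labelled libraries, where the segments of Col4a1 with Col4a2 and of Col2a1 are larger and those of Col7a1 and of Col4a5 with Col4a6 smaller.

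Without Col17a1, Col2a1 made 0.245% and 1.51% of summed collagen FPKM in control and 10.5% and 9.96% in the 2KO-labelled libraries. Col4a1 with Col4a2 made 10.6% and 13.2% in control and 17.3% and 19.4% in the 2KO-labelled libraries. Col7a1 went the other way, at 17.8% and 10.7% against 6.12% and 6.36%. As the stacked plot of collagen make-up shows, the summed level was also higher in both 2KO-labelled libraries.

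Genes that act with the epithelial collagens changed in both directions. Of 15 partners in hemidesmosomes and anchoring structures, 5 fell, 1 rose and 9 were not called. The shares were 33.3% lower and 6.67% higher, beside 4.92% and 7.00% of all genes tested. Among those that fell were Frem2, an anchoring protein of embryonic basement membrane, at 1152 and 897 CPM against 373 and 430 CPM (log2 fold change -1.35, adjusted p = 0.000491), the laminin chain Lamb3 (-0.62, adjusted p = 0.0394), and the basal keratins Krt14 (-0.72, adjusted p = 0.0248) and Krt5 (-0.45, adjusted p = 0.0392). Frem1, a relative of Frem2, rose from 4.75 and 6.45 CPM to 24.6 and 38.0 CPM (log2 fold change 2.48, adjusted p = 0.000806). These 5 named genes kept their call under both offsets. Without control replicate 1 the adjusted p was 0.138 for Lamb3, 0.112 for Krt5 and 0.0674 for Krt14; for Lamb3 it was also 0.140 without 2KO replicate 1 and 0.0583 without 2KO replicate 2. Krt14 and Krt5 are themselves basal cell markers. Of 10 epithelial markers 4 fell (Dsp, Perp, Krt14 and Krt5), 0 rose and 6 were not called. The log2 fold change was positive for 3 of the 10, with a median of -0.36 and a range from -1.23 to 0.34. The groups did not overlap for 6 of the 10, near the 57.7% of all genes tested. The summed level of the 10 was 22925 and 19101 CPM in control and 13890 and 14066 CPM in the 2KO-labelled libraries. This sum includes Krt14 and Krt5, already counted among the partners above. The part of the epithelial markers in the falls of Col7a1, Col4a5 and Col4a6 was not tested.

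Of 17 further basement membrane genes 5 rose (29.4%, beside 7.00% of all genes tested) and 0 fell. Nid1, which links laminin to type IV collagen, rose from 23.7 and 21.0 CPM to 49.1 and 63.8 CPM (log2 fold change 1.33, adjusted p = 0.00353), and Smoc2, a matricellular protein, from 49.3 and 51.9 CPM to 99.6 and 136 CPM (1.22, adjusted p = 0.00263). Lama1, the embryonic laminin chain, also rose (3.16, adjusted p = 0.0258) from under 1 CPM in both controls, and lost its call without 2KO replicate 1 (0.0619) or 2KO replicate 2 (0.0974). Hspg2, which encodes perlecan, and Lamb1 rose by log2 fold changes of 0.90 (adjusted p = 0.00583) and 0.65 (adjusted p = 0.0270), and lost the call under the centred offset (0.12, adjusted p = 0.658, and 0.47, adjusted p = 0.0833). Lamb1 also lost it without 2KO replicate 2 (adjusted p = 0.216).

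Of 22 genes for collagen synthesis and secretion, 0 rose and 1 fell (4.55%, beside 4.92% of all genes tested). P4ha2, a prolyl 4-hydroxylase subunit that stabilises the helix, went from 37.3 and 34.7 CPM to 21.0 and 19.3 CPM (log2 fold change -0.84, adjusted p = 0.0358). Its adjusted p was 0.0578 without control replicate 1, 0.0963 without 2KO replicate 1 and 0.167 without 2KO replicate 2. Of 12 genes for trimming and cross-linking 3 rose, beside 7.00% of all genes tested. They were Adamts3, which cuts the N-propeptide of type II procollagen (2.14, adjusted p = 0.0388), the related Adamts14 (1.01, adjusted p = 0.0351), and Pxdn, which cross-links type IV collagen (0.77, adjusted p = 0.0344). Adamts14 and Pxdn lost the call under the centred offset (adjusted p = 0.263 and 0.106) and without 2KO replicate 2 (0.322 and 0.266), and Adamts3 lost it without control replicate 2 (0.0536), 2KO replicate 1 (0.161) or 2KO replicate 2 (0.109). Of 10 collagen receptors tested 1 rose, a share close to the 7.00% of all genes tested that rose. It was Adgrg1, a receptor for Col3a1, which went from 72.2 and 82.0 CPM to 154 and 197 CPM (1.19, adjusted p = 0.00196).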

How the data were processed

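RNA-seq of sorted tongue epithelium was compared between 2 control and 2 Ring1a/b 2KO libraries. Per the labels' protocols, 15 ng of RNA was amplified before sequencing as 100-nucleotide single reads, so reads are not independent molecules and intervals cover counting error only. Each deposited file, as made by the authors, holds a raw read count and an FPKM value for every gene. The submitters' processing notes list HTSeq 0.6.1, DESeq2 1.6.3, Cufflinks 2.2.1, TopHat2 2.0.13 and mm10. Tool roles, gene annotation and strandedness: not given in the sources used here. Overlapping genes may therefore share or lose reads.

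The deposited counts were tested with edgeR 4.0.16 in R 4.3.3 (TMM, filterByExpr with the group, quasi-likelihood, two-sided, genotype alone, Benjamini-Hochberg over the 15336 genes tested, threshold 0.05). Every adjusted p and log2 fold change is from this fit unless another is named. CPM uses TMM-scaled library sizes. Replicates differed by more than sampling noise (chi-square per degree of freedom 29.1 in control, 22.8 in 2KO). In simulated counts for this comparison over 14913 genes, the test recovered 31% of 100 genes changed 2-fold and 79% of 100 changed 4-fold, with 0 of wrong sign.

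Alternatives were RLE and upper-quartile scaling, DESeq2 1.42.0, limma-voom and limma-trend (limma 3.58.1) on log2 FPKM plus 1 or 0.1, other filters, a replicate block, leaving out each library or the abundant Rn45s, Malat1 and Lars2, and a per-library offset for GC content and transcript length. The centred form of that offset was chosen after seeing the data. Symbols were matched to GENCODE M21, and all 44 members matched. The members and lists were chosen with earlier results of these data known. Named are all called collagens, Col17a1, Col7a1, type IV, Col1a1, Col1a2 and Col3a1, the member of each class with the highest control FPKM, members at 0 counts, called members of the partner lists (at most 8, of which 1 is not reported here) and the 2 most abundant markers of each cell type. Collagens named beyond this, Fbln2, Tcf21, Postn, Perp, Matn1, Cnmd, Hapln1, Ucma, Comp, Ddx3y, Uty, Eif2s3y, Kdm5d and Xist were chosen after their values were seen.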

Additional observations from a re-analysis of the deposited data

How the results depend on the processing

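Results on 25 collagens and 5 summary values were recomputed under each alternative. The median log2 fold change of epithelial collagens (0.15) was 0.27 with limma-voom, -0.15, -0.16 and 0.018 with limma-trend on FPKM (plus 1 filtered, plus 0.1 filtered, plus 1 unfiltered), -0.30 with the GC and length offset, -0.14 with it centred, 0.34 with Col15a1 and Col18a1 added, and -0.29 to 0.33 with each library left out. That of other collagens (0.29) was -0.25 and -0.10 under both offsets and 0.40 to 0.64 with each library left out. The 1827 genes called became 2796 with no filter, 887, 658 and 0 with limma-trend on FPKM (the last with 3764 genes and 18 collagens at an unadjusted p under 0.05), and 1405 to 2747 with each library left out, the highest without control replicate 1. The 10 collagens called higher became 5 and 0 with limma-trend on FPKM plus 0.1 filtered and plus 1 unfiltered, 4 with the offset, 5 with it centred, and 8 to 12 with each library left out. The 3 called lower became 1 with upper-quartile scaling, 0 with each limma-trend fit, 7 with the offset and 1 to 3 with each library left out; the value was 1 without control replicate 1 and without 2KO replicate 1. The uncentred offset moved the median of all genes to -0.14 and the share of higher calls from 58.7% to 37.2%; upper-quartile scaling gave 65.6%, and limma-trend on FPKM 70.7% and 71.7%.

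Signs turned in members that were not called. Col14a1 (-0.01) was 0.040 with upper-quartile scaling, 0.087, 0.089 and 0.087 in the limma-trend fits, 0.0091 without Rn45s, Malat1 and Lars2, and -0.13 to 0.089 with each library left out. Under the offset and its centred form, Col17a1 was -0.42 and -0.28, Col18a1 -0.27 and -0.12, Col1a1 -0.40 and -0.26, Col4a3 -0.17 and -0.0062, and Col6a2 -0.26 and -0.12. Col4a3 was -0.034 with unfiltered FPKM. With each library left out the ranges were -0.083 to 0.35 for Col17a1, -0.064 to 0.80 for Col1a1, -0.40 to 0.11 for Col1a2, -0.51 to 1.71 for Col4a3, -0.094 to 0.93 for Col4a4 and -0.19 to 0.44 for Col6a2. The cause was not tested.

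The labels do not say whether replicate numbers pair the libraries. Deviations of same-numbered libraries from their group mean correlated at -0.02. With 2 libraries a group this is a single value, which cannot settle pairing. With the replicate block 2036 genes, 11 collagens higher and 3 lower were called, and the medians were 0.28 for epithelial and 0.44 for other collagens. Where a library was left out, the lone one was assumed to vary like the other group. With 2 libraries a group, changes near 2-fold were often missed on simulated data, so a collagen that was not called is not shown to be unchanged.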

Other observations

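Markers of further cell types are given as values. Neural crest and Schwann cell markers summed to 138 and 86.7 CPM in control and 83.1 and 107 CPM in the 2KO-labelled libraries, with 0 of 6 called by edgeR. Erbb3, which epithelium also expresses, was at 127, 75.2, 74.9 and 91.8 CPM and Sox10 at 7.01, 6.57, 2.67 and 6.28 CPM. Immune cell markers summed to 26.4 and 23.0 CPM against 53.8 and 47.2 CPM. Of 6 tested, 1 rose (16.7%, beside 7.00% of all genes tested). It was Cd68, a lysosomal protein of macrophages, at 21.3 and 11.9 CPM against 47.2 and 39.0 CPM (adjusted p = 0.0123, edgeR). Cd68 was the larger part of the immune sum in each library. The log2 fold change was positive for 3 of the 6, with a median of 0.02 and a lowest value of -3.98. The receptor Csf1r was at 2.01 and 2.88 CPM against 5.05 and 3.86 CPM. Of 4 transcription factors of epithelial-mesenchymal transition, 0 were called by edgeR. The log2 fold change was positive for 2 of the 4, with a median of 0.04 and a range from -1.45 to 2.35. Their sums overlapped between groups, at 48.1 and 82.9 CPM against 64.4 and 78.3 CPM. Snai1, a low member chosen after its values were seen, was at 0.784 and 0.587 CPM against 2.61 and 4.45 CPM (adjusted p = 0.0938, edgeR).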
